A study of Ovis aries with 6 samples.

Results

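Cytosolic ribosomal protein genes were followed across the cell classes of the sheep rumen epithelium, the keratinised lining of the forestomach. Members were the protein-coding genes whose sheep symbol begins with RPL or RPS and a digit, together with RPLP0, RPLP1, RPLP2 and RPSA, which gave 81 of 26741 genes. Of 92 symbols of this form, 10 belong to S6 kinases, which phosphorylate proteins and are not parts of the ribosome, and 1 was annotated as a lncRNA. The 81 comprise 49 RPL and 32 RPS genes. The nuclei came from the ventral sac of the rumen of male lambs in a series on grazing sheep and supplementary feeding. The labels name the groups MGNS and MGHS, with 3 animals and 1 library per animal in each, and they spell out neither name and give no age. All animals had the same tissue handling per the labels, with the rumen washed after slaughter and the tissue chopped and frozen before nuclei were isolated for droplet sequencing of nuclear RNA. Each group is therefore known here by its name alone, and fold changes take MGNS as the reference.

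The ribosome is the machine that makes protein from messenger RNA, and its small and large subunits each hold ribosomal RNA and a set of proteins present mostly in single copies. RPS genes encode small-subunit proteins and RPL genes large-subunit proteins. Most of their messages begin with a terminal oligopyrimidine tract through which translation responds to growth signals, and their messages are abundant in dividing cells. In a stratified epithelium, cells divide in the basal layer and stop dividing as they move up through spinous and granular layers.

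The files held 67553 barcodes and 268011559 UMIs (counted molecules), 34418856 to 59997793 per library, and 41822 nuclei were retained, 4830 to 10201 per animal. The median nucleus held 3123 to 4764.5 UMIs, and any pair of libraries shared 5 to 22 barcodes, at most 0.352%. The labelled cell type, rumen epithelial cells, covers 1 portion of these nuclei. Markers put 13608 nuclei in keratinocyte-like classes, and the others included T or NK-like, B or plasma-like, macrophage or dendritic-like, fibroblast-like and endothelial-like classes. Clusters 2, 5, 11 and 13 were not named. The granular-like share of nuclei was 5.09 ± 2.54% for MGNS and 13.5 ± 4.22% for MGHS (SD, n = 3), and cluster 5 held 3.18% to 5.96% in every animal except MGHS 3, where it held 25.5%.

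Ribosomal protein transcripts made up 9.04% of all UMIs in retained nuclei, and 80 of the 81 members were detected. UMIs were not divided by transcript length, so levels in CPM (UMIs per 1000000) describe what was captured and do not rank proteins or messages per molecule. RPLP1, a protein of the acidic stalk of the large subunit, had the most UMIs. It stood at 3250, 2188 and 2534 CPM across MGNS 1 to 3 and at 2074, 2973 and 3040 CPM across MGHS 1 to 3, so the groups overlapped. Among the next highest, RPL23, RPL32, RPS14 and RPS12 had means of 2389, 2125, 2068 and 2045 CPM over the 6 animals. At the other end lay copies and relatives of the core set. RPL26L1, a near copy of a large-subunit protein, stood at 37.6 ± 13.2 CPM and RPL7L1, a relative of RPL7, at 22.2 ± 6.12 CPM (SD, n = 6). RPS19BP1, which binds RPS19, is not itself a part of the ribosome and enters by its symbol, stood at 45.8 ± 14.5 CPM. RPL3L, known as the muscle form of RPL3, had 12 UMIs over 4 animals. RPL10L, known as the testis form of RPL10, had 0 of 218149328 UMIs, which allows up to 0.01375 CPM by counting error at a floor of 3 counts.

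The classes differed widely in the share of their captured UMIs that fell in ribosomal protein genes. Because classes were found by clustering the same nuclei, their levels are described with no test. The member share was 15.6 ± 3.20% in basal-like nuclei, 15.55 ± 3.04% in cycling keratinocyte-like nuclei, 7.50 ± 2.04% in spinous-like nuclei and 1.98 ± 0.709% in granular-like nuclei (SD, n = 6). Granular-like nuclei had the lowest share of the 17 classes in 6 of 6 animals. Cluster 5 had the highest in 6 of 6 animals, at 24.1 ± 3.61%, and its median nucleus held 495 UMIs. Cluster 5 was led by GSTA1, CA1 and S100A2, and 6 of 11 spinous and 3 basal markers were at least 2-fold up there. It was not counted among the keratinocyte-like classes, and its place in the order was not tested for depth. Cluster 2 had 14.99 ± 2.16%, near the basal-like share, and its median nucleus held 1404 UMIs. There 8 of 15 granular or cornified markers and 7 spinous markers were at least 2-fold up. In granular-like nuclei 9 of those 15 were up. Cluster 2 was also not counted among the keratinocyte-like classes, and its share was not tested for depth.

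Lymphoid classes lay between the keratinocyte layers. B or plasma-like nuclei had 11.5 ± 1.87% and T or NK-like nuclei 10.0 ± 1.52%, with cluster 11, where 9 of 14 T or NK markers were raised beside BLK, at 11.5 ± 1.26%. Neutrophil-like nuclei had 7.81 ± 2.50% and macrophage or dendritic-like nuclei 6.26 ± 1.56%. The stromal classes were low, with 5.34 ± 0.927% in blood endothelial-like, 5.17 ± 1.27% in lymphatic endothelial-like, 4.12 ± 1.45% in smooth muscle or pericyte-like and 3.77 ± 1.03% in fibroblast-like nuclei. Neighbours in this order mostly did not differ beyond the spread of animals. Basal-like nuclei were above cycling keratinocyte-like nuclei in 3 of 6 animals, and above cluster 13, a cluster led by cycling genes such as MKI67 and TOP2A, in 6 of 6.

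**Figure D1:**
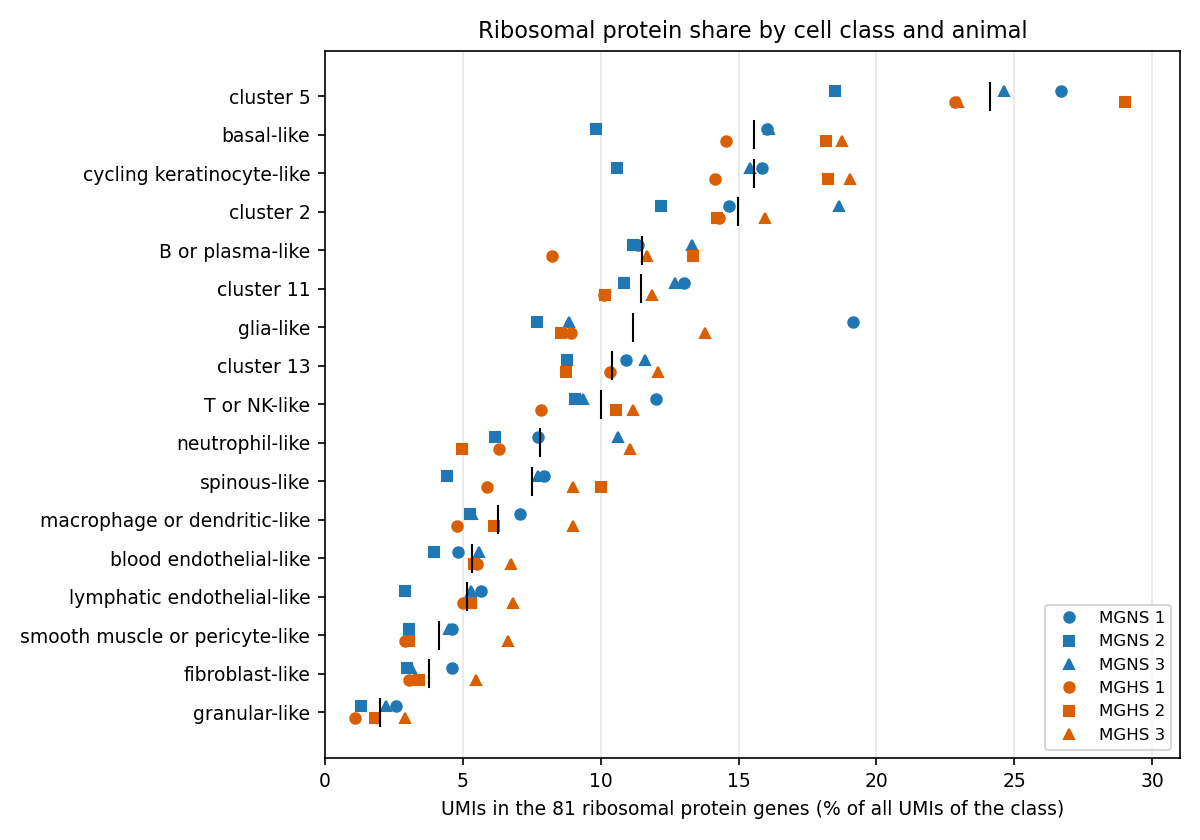
Percent of each class's UMIs that fell in the 81 ribosomal protein genes, by cell class (rows) and animal (points, with blue for MGNS and orange for MGHS), with a black line at the mean of 6 animals. Cluster 5 is highest and granular-like nuclei lowest in every animal, and the 2 groups of animals overlap in every class shown.

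The fall from basal-like to granular-like nuclei was shared by the whole family. It was not seen in cluster 2, which also had granular or cornified markers raised but kept a member share of 14.99 ± 2.16%. The fall therefore describes the granular-like class and not every cluster with such markers. In basal-like nuclei the share was 16.04%, 9.83% and 16.1% across MGNS 1 to 3 and 14.5%, 18.2% and 18.7% across MGHS 1 to 3. In granular-like nuclei it was 2.57%, 1.31% and 2.21% across MGNS 1 to 3 and 1.09%, 1.81% and 2.90% across MGHS 1 to 3. The basal-like share was 6.23 to 13.3 times the granular-like share, with a mean of 8.47 ± 2.73, and no animal's granular-like value reached any animal's basal-like value. All 79 members that could be compared stood higher in basal-like than in spinous-like nuclei and higher in spinous-like than in granular-like nuclei in 6 of 6 animals. Among 6181 genes at 20 CPM or more over both layers, 61.2% were higher in basal-like than in granular-like nuclei in all 6 animals, and the median log2 ratio was 1.35 against 2.98 for the members. Members also had a basal-like level at least 4 times the granular-like one in 98.7% of cases, against 38.3% of those genes.

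Single members spread from 3.84-fold to 11.1-fold around a median of 7.95. RPL5, which carries the 5S ribosomal RNA into the large subunit with RPL11, had the largest ratio, from 1332 ± 358 CPM in basal-like to 571 ± 182 in spinous-like and 120 ± 49.6 CPM in granular-like nuclei (SD, n = 6). RPS2 and RPSA, small-subunit proteins, followed with ratios of 10.7 and 10.5, and RPL4 and RPL27A, large-subunit proteins, with 10.1 each. RPL3, which helps form the peptidyl transferase centre, had 9.79, RPS4X, encoded on the X chromosome, 8.94, and RPS6 9.25. RPS19, the small-subunit protein bound by RPS19BP1, had 7.94 and RPL11 had 7.29. RPL10, which joins the large subunit late, had 7.65, and RPS27A, made as a fusion with ubiquitin, had 7.07. Of the stalk proteins, RPLP0 had 8.80, RPLP2 8.06 and RPLP1 7.04.

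The smallest ratio belonged to RPL22L1, the paralog of the RNA-binding protein RPL22. RPL22L1 went from 142 ± 24.6 CPM in basal-like to 37.0 ± 15.1 CPM in granular-like nuclei, a ratio of 3.84, whereas RPL22 had 9.56. RPL26L1 had a ratio of 4.69, and the core protein RPL39 had 5.76.

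**Figure D2:**
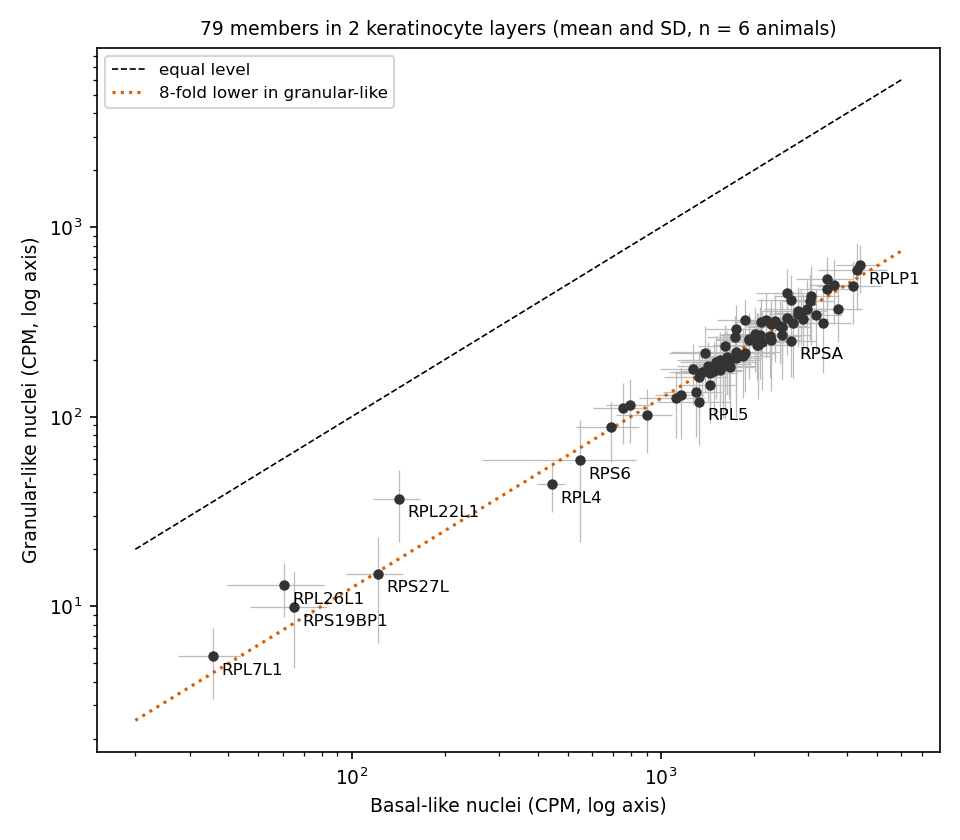
Mean level of each of 79 ribosomal protein genes in granular-like nuclei against basal-like nuclei, in CPM on log axes, with SD over 6 animals as bars. The dashed line marks equal levels and the dotted line an 8-fold lower granular-like level. All points lie below the dashed line, and RPL22L1 and RPL26L1 lie above the dotted line.

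Median UMIs did not fall with the layers and were 7166 in basal-like, 10118 in spinous-like and 8798 in granular-like nuclei. In nuclei of 5000 to 10000 UMIs the member share was 14.2 ± 2.74% in basal-like, 6.97 ± 1.68% in spinous-like and 1.70 ± 0.550% in granular-like nuclei. In nuclei of 500 to 2000 UMIs it was 10.3 ± 1.96%, 6.11 ± 1.72% and 3.14 ± 1.22%, a narrower gap between basal-like and granular-like nuclei. That range held few nuclei, with as few as 20 spinous-like and 7 granular-like nuclei in an animal. Members were not among the 2000 variable genes used for clustering. Clusters made anew with members left out before that choice gave a basal-like to granular-like ratio of 7.91. As no member was among the variable genes to begin with, this rerun cannot show whether members shaped the classes. Member UMIs still counted in the scaling of each nucleus there. The layer names rest on other transcripts of the same nuclei, and the spinous-like cluster also had 8 granular markers at least 2-fold up.

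Other genes of protein synthesis and energy supply were lower in granular-like nuclei to differing degrees. The basal-like share was 10.9 ± 2.68 times the granular-like share for nuclear genes of oxidative phosphorylation. For transcripts of the mitochondrial genome it was 5.57 ± 1.04 times and for mitochondrial ribosomal proteins 4.89 ± 0.8004 times. Ribosome biogenesis had 4.36 ± 0.738, and the list of translation factors of terminal oligopyrimidine messages had 4.17 ± 0.554. Genes of mTOR, S6 kinase and stress control, which set how strongly ribosomal protein messages are translated, had 1.15 ± 0.156.

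Within the family, most members kept a like share between classes. Each member's share of the family's UMIs differed between its highest and lowest class by a median factor of 1.31. It exceeded 2 for 5 members, RPL26L1 at 3.99, RPL7L1 at 3.51, RPS27L at 2.98, RPL22L1 at 2.66 and RPS19BP1 at 2.24. These are the 5 members with the fewest UMIs among the 79, so counting error is largest for them.

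RPL22L1 was set against its partner RPL22 to describe the balance of the paralogs. It gave 11.4 ± 2.95 UMIs per 100 of RPL22 in basal-like nuclei, 17.1 ± 3.26 in spinous-like and 29.9 ± 12.1 in granular-like nuclei (SD, n = 6). It gave 35.6 ± 8.78 in B or plasma-like nuclei and 41.1 ± 12.95 in cluster 13. MGNS 2 was the highest animal in basal-like nuclei at 16.6, in granular-like nuclei at 51.3 and in cluster 13 at 62.2.

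RPL36AL, which encodes a near copy of RPL36A, gave 89.8 ± 13.5 UMIs per 100 of RPL36A in basal-like nuclei, 161 ± 11.3 in T or NK-like nuclei and 219 ± 41.9 in B or plasma-like nuclei. The lowest T or NK-like animal, at 148, was above the highest basal-like animal, at 110.4. RPS27L, a paralog of RPS27, gave 5.59 ± 2.08 per 100 of RPS27 in T or NK-like nuclei, 14.5 ± 3.09 in fibroblast-like nuclei and 15.01 ± 4.64 in smooth muscle or pericyte-like nuclei. The sources used here do not say how reads shared by near-identical copies were counted, and these ratios are uncertain in size.

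**Figure D3:**
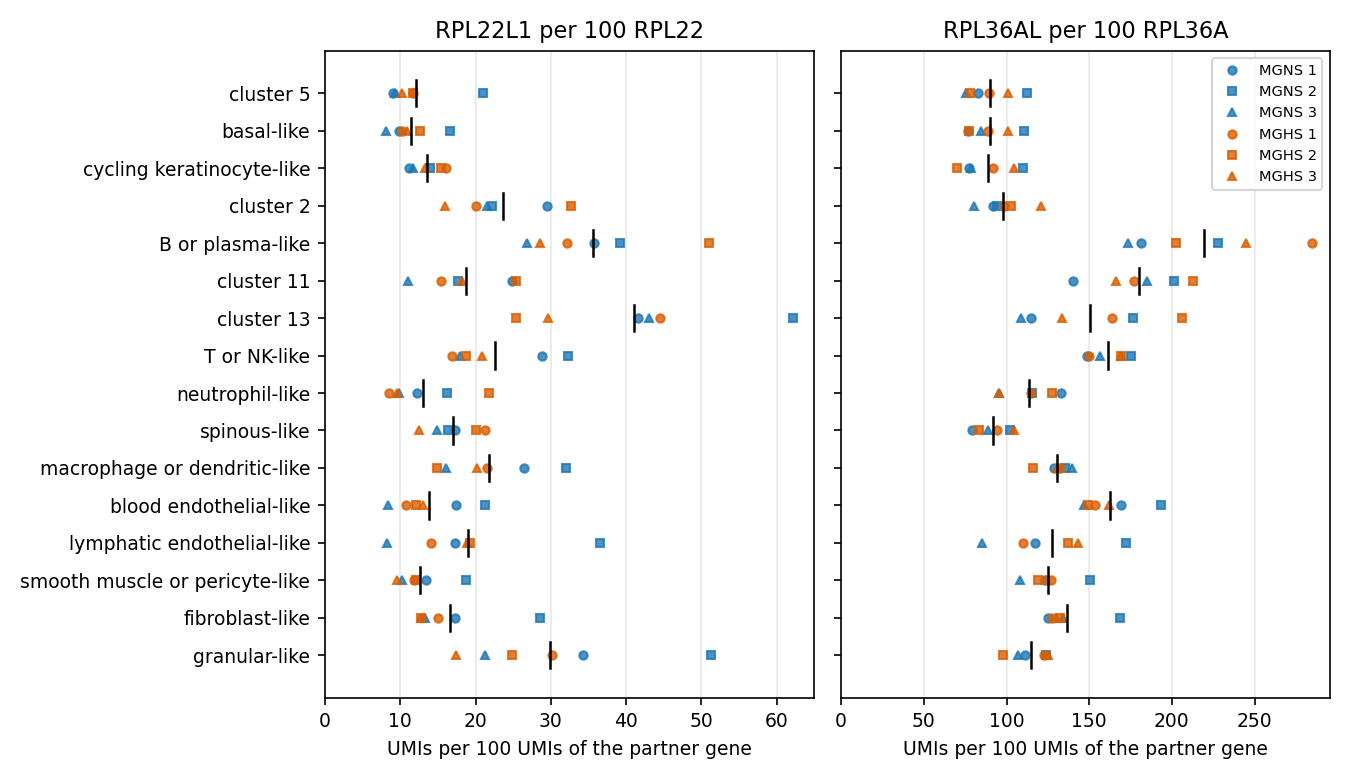
UMIs of RPL22L1 per 100 UMIs of RPL22 (left) and of RPL36AL per 100 UMIs of RPL36A (right) by cell class and animal, with a black line at the mean of 6 animals. RPL36AL lies at 148 per 100 or more in every T or NK-like value and at 110.4 or less in every basal-like value.

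MGHS was compared with MGNS to ask whether the family differed between the groups, and it did not separate them. The member share over all nuclei was 10.3%, 6.59% and 8.76% across MGNS 1 to 3 and 6.54%, 9.53% and 11.97% across MGHS 1 to 3. The lowest and the highest animal were both MGHS, and the means were 8.55 ± 1.86% and 9.35 ± 2.72% (SD, n = 3). In keratinocyte-like nuclei the share was 9.02 ± 2.67% in MGNS and 9.67 ± 2.99% in MGHS, again overlapping. Over summed nuclei, fewer cells of a high-share class and less message per cell cannot be told apart. The animals kept much of their order from class to class. MGNS 2 was among the lowest 2 animals in 16 of 17 classes and MGHS 1 in 12, and MGHS 3 was among the highest 2 in 14.

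No member passed edgeR's quasi-likelihood test with Benjamini-Hochberg adjustment over all genes at 0.05, in all nuclei, in keratinocyte-like nuclei or in any of 16 classes. In all nuclei 79 members were tested and the background called was 0% of 18847 genes. The smallest adjusted p was 0.231. At an unadjusted p under 0.05 there was 1 member, against 19.9% of all genes. DESeq2 called 0 members and 1433 genes, and limma-voom 0 members and 304 genes. The exact permutation test of a single value cannot go below p = 0.1 with 3 animals against 3.

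Log2 fold changes of the members were mostly positive in all nuclei, without a call. They were above 0 for 72 of 79 members with a median of 0.26, beside 49.4% of all genes and a median of -0.01. When only total UMIs were used for scaling, 64 of 79 members were above 0 with a median of 0.15, and the median of all genes moved to -0.12. The members' median was 0.08 to 0.49 over all alternatives. No member had every MGHS animal above every MGNS animal, against 7.84% of genes, and RPL36 alone had every MGHS animal below, against 22.3% of genes.

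The highest medians were in endothelial-like classes, in cluster 5 and in keratinocyte-like classes other than granular-like. In keratinocyte-like nuclei 75 of 79 members were above 0 with a median of 0.33, and 0.00613% of genes were called. In basal-like nuclei it was 77 of 79 with a median of 0.40 (0.00718% of genes called), in spinous-like nuclei 76 of 79 with 0.37 (0% called), and in cycling keratinocyte-like nuclei 77 of 79 with 0.42 (0.127% called). Granular-like nuclei had 65 of 79 with 0.17 (0% called), but 28 of 79 with -0.05 when only total UMIs were used for scaling, 31 of 79 without MGNS 2 and 37 of 79 without MGHS 2. Blood endothelial-like nuclei had 75 of 79 with 0.30 (0.0104% called), lymphatic endothelial-like nuclei 76 of 79 with 0.33 (0% called) and cluster 5 had 75 of 79 with 0.29 (0.107% called).

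The other classes had medians from -0.39 to 0.17. T or NK-like nuclei had 18 of 79 members above 0 with a median of -0.07 (0.00852% called). B or plasma-like nuclei had 51 of 79 with 0.05, macrophage or dendritic-like nuclei 60 of 79 with 0.12 and neutrophil-like nuclei 41 of 76 with 0.01 (0% called in each). Fibroblast-like nuclei had 66 of 79 with 0.17 (0.0807% called), and smooth muscle or pericyte-like nuclei 58 of 79 with 0.10 (0% called). Cluster 2 had 57 of 79 with 0.08 (0% called). Glia-like nuclei, where 775 genes were tested and the median nucleus held 430 UMIs, had 1 of 73 above 0 with a median of -0.39 (0% called).

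Without MGHS 3 the medians were -0.18 in macrophage or dendritic-like, -0.48 in neutrophil-like, -0.13 in fibroblast-like and -0.35 in smooth muscle or pericyte-like nuclei. Without MGNS 1 the glia-like median was 0.32 and the T or NK-like median 0.06, with 60 of 79 members above 0, and without MGHS 1 the T or NK-like median was 0.09, with 56 of 79. The B or plasma-like median turned to -0.01 without MGNS 2, -0.06 without MGHS 2 and -0.03 without MGHS 3. Over all 13 fits it was above 0 in 8, from -0.19 to 0.21. The neutrophil-like median was above 0 in 6 of 13, from -0.48 to 0.27. Without MGNS 2 the median was -0.17 in neutrophil-like nuclei, -0.08 in smooth muscle or pericyte-like nuclei and -0.03 in cluster 2. Without MGNS 1 it was -0.06 in neutrophil-like nuclei. The members share animals and libraries, so these medians describe the same 6 libraries and not 79 independent tests.

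The difference between keratinocyte-like and T or NK-like responses was tested itself, with the animal as a block. It was above 0 for 77 of 79 members with a median of 0.41 on the log2 scale, against -0.06 for all genes. This test was not rerun with only total UMIs used for scaling. For the member share of total UMIs, the log2 ratio of MGHS to MGNS means was 0.10 in keratinocyte-like and -0.04 in T or NK-like nuclei. None of the 79 passed, with 0.00611% of 16363 genes called, and 2 had an unadjusted p under 0.05 against 11.4% of genes. Without MGNS 3, 24 of 79 members had an unadjusted p under 0.05, against 2104 of 16799 genes in that fit. Without MGNS 2 the members' median was 0.22. RPL22L1 had the smallest p (difference 0.87 ± 0.26 SE, edgeR adjusted p = 0.294).

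**Figure D4:**
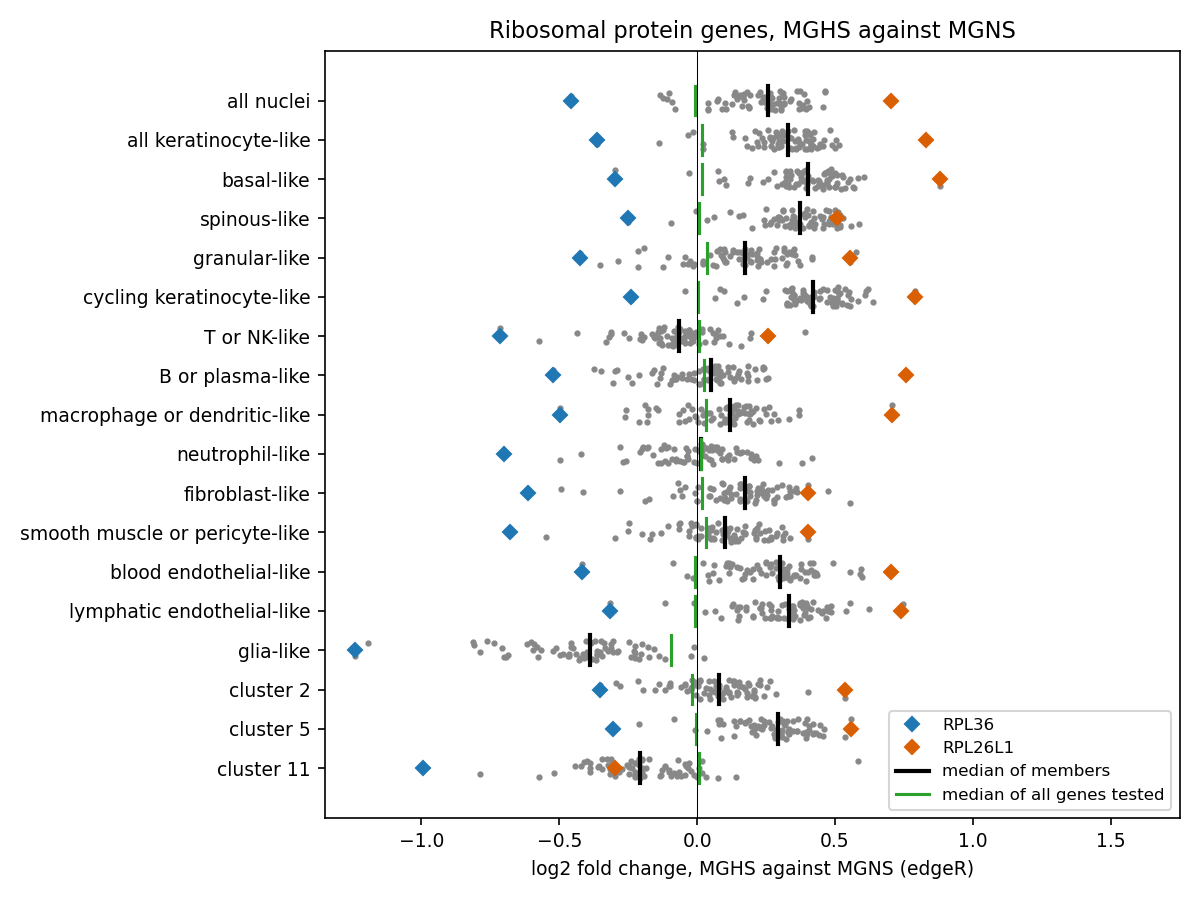
Log2 fold change of each ribosomal protein gene, MGHS against MGNS from edgeR, in all nuclei, keratinocyte-like nuclei and 16 classes (rows), with black lines at the members' median and green lines at the median of all genes tested. RPL36 (blue diamonds) is below 0 in every row, and no member passed the adjusted threshold in any row.

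RPL36, a large-subunit protein, had the lowest fold change of the family in all nuclei. It stood at 570, 408 and 431 CPM across MGNS 1 to 3 and at 312, 348 and 290 CPM across MGHS 1 to 3. All 3 MGHS animals lay below all 3 MGNS animals. The log2 fold change was -0.46 ± 0.20 SE and did not pass (edgeR adjusted p = 0.260). It was below 0 in 16 of 16 classes, from -1.24 to -0.24, and the groups did not overlap in 11 of them. Over the 16 classes, 2.45% to 16.8% of genes had every MGHS animal below every MGNS animal.

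RPL36 came nearest to the threshold in cluster 11. There it was 656, 636 and 603 CPM across MGNS 1 to 3 and 439, 327 and 227 CPM across MGHS 1 to 3, with no overlap. The log2 fold change was -0.99 ± 0.22 SE (edgeR adjusted p = 0.139, and 0.000289 to 0.363 over the alternatives). DESeq2 called it with an adjusted p of 0.0327. In cluster 11, 15 of 78 members had every MGHS animal below every MGNS animal, against 5.65% of genes, and 8 of 78 were above 0 with a median of -0.21 (0% of genes called). Cluster 11 made up 3.03 ± 0.163% of MGNS nuclei and 0.706 ± 0.259% of MGHS nuclei. It held 137, 252 and 216 nuclei across MGNS 1 to 3 but only 29, 64 and 59 across MGHS 1 to 3, so the MGHS values rest on few nuclei.

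RPL26L1 had the highest fold change, again without a call. In all nuclei it stood at 35.1, 21.5 and 33.4 CPM across MGNS 1 to 3 and at 31.4, 44.5 and 59.9 CPM across MGHS 1 to 3. MGHS 1 lay inside the MGNS range, and the log2 fold change was 0.70 ± 0.28 SE (edgeR adjusted p = 0.231). In basal-like nuclei it was 48.7, 35.1 and 51.1 CPM across MGNS 1 to 3 and 58.1, 77.3 and 92.5 CPM across MGHS 1 to 3, with no overlap (0.88 ± 0.25 SE, edgeR adjusted p = 0.237). In all, 3 of 79 members had every MGHS animal above every MGNS animal there, against 7.23% of genes.

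In cycling keratinocyte-like nuclei RPL26L1 did not overlap either, at 72.1 ± 11.4 CPM in MGNS and 113 ± 15.5 CPM in MGHS (SD, n = 3). Its log2 fold change was 0.79 ± 0.21 SE (edgeR adjusted p = 0.153, and 0.00981 to 0.422 over the alternatives), and it was called only where every gene with at least 1 UMI was kept.

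RPS13, RPL15 and RPL7, core proteins of the small and large subunits, had the next smallest p in all nuclei, with log2 fold changes of 0.46 each. RPS13, RPL9 and RPL28 had 0.51, 0.50 and 0.46 in keratinocyte-like nuclei. The groups overlapped for each of these. Other members gave smaller values in all nuclei, with log2 fold changes of 0.37 for RPS2, 0.27 for RPSA, 0.25 for RPL5, 0.30 for RPL11, 0.13 for RPLP0 and RPLP1 and 0.19 for RPLP2. RPS6 had 0.26 ± 0.54 SE and RPL37A -0.11 ± 0.47 SE, the widest errors among these members.

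In blood endothelial-like nuclei 19 of 79 members had every MGHS animal above every MGNS animal, against 9.30% of genes. The mitochondrial share of UMIs in these nuclei was 0.369 ± 0.146% for MGNS and 0.646 ± 0.235% for MGHS (SD, n = 3), with no overlap, and its part in the members' difference was not tested. RPS13 had the smallest p there, at 553 ± 69.4 CPM in MGNS and 850 ± 123 CPM in MGHS (0.60 ± 0.17 SE, edgeR adjusted p = 0.330). RPL15 in lymphatic endothelial-like nuclei had 0.62 ± 0.28 SE (edgeR adjusted p = 0.556). RPS27 in glia-like nuclei had -1.20 ± 0.63 SE (edgeR adjusted p = 0.998).

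A few members differed between single animals in their share of the family's UMIs more than the typical member did. For the typical member the share of the family's UMIs in the highest animal was 1.21 times that in the lowest, and 4 members exceeded 2. These 4, RPL37A, RPL36, RPS6 and RPL7L1, were singled out after their values were seen.

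RPS6, the small-subunit protein that S6 kinases phosphorylate, took 0.240%, 0.233% and 0.489% of the family's UMIs across MGNS 1 to 3 and 0.239%, 0.224% and 0.469% across MGHS 1 to 3. MGNS 3 and MGHS 3 lay near a value of their own, and the other 4 animals lay near another. This pair was highest in 16 of 17 classes, glia-like nuclei being the exception. In basal-like nuclei RPS6 stood at 854 CPM in MGNS 3 and 943 CPM in MGHS 3, and at 243 to 435 CPM in the other 4 animals.

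RPL37A, a large-subunit protein, took 1.32%, 0.837% and 1.28% across MGNS 1 to 3 and 1.19%, 0.467% and 1.16% across MGHS 1 to 3. MGHS 2 was lowest in 17 of 17 classes, with MGNS 2 between it and the other animals in the sum of all nuclei. RPL36 took 0.554%, 0.619% and 0.492% across MGNS 1 to 3 and 0.477%, 0.366% and 0.243% across MGHS 1 to 3, and all 3 MGHS shares lay below all 3 MGNS shares in 11 of 17 classes. RPL26L1 took 0.0340%, 0.0326% and 0.0381% across MGNS 1 to 3 and 0.0481%, 0.0467% and 0.0501% across MGHS 1 to 3.

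These patterns follow the animal across classes and the labels give no batch, so differences between animals and between libraries cannot be told apart.

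**Figure D5:**
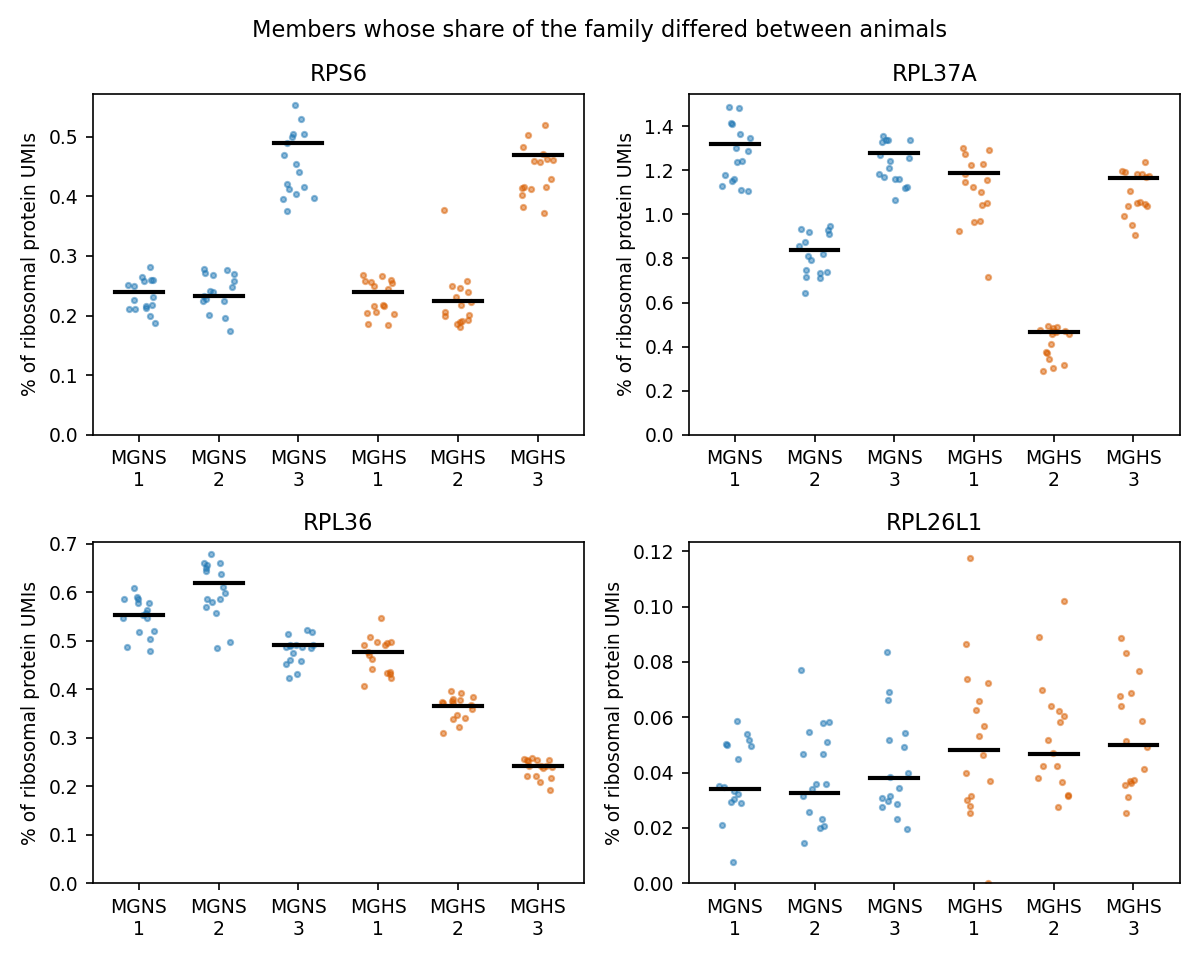
Share of all ribosomal protein UMIs taken by RPS6, RPL37A, RPL36 and RPL26L1 in each animal, in percent, with 1 point per cell class (glia-like nuclei left out for low counts) and a black line for all nuclei. RPS6 is high in MGNS 3 and MGHS 3, RPL37A low in MGHS 2, and RPL36 lower in MGHS than in MGNS in the sum of all nuclei.

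Genes that build or control ribosomes were set beside the members in all nuclei, and none was called. For ribosome biogenesis 12 of 83 genes were above 0 with a median log2 fold change of -0.32, and 27 had an unadjusted p under 0.05 and were lower, against 19.9% of all genes in either direction. UTP20, part of the machinery that processes small-subunit RNA, stood at 59.0 ± 2.80 CPM in MGNS and 33.4 ± 1.19 CPM in MGHS (-0.71 ± 0.13 SE, edgeR adjusted p = 0.0973). RRP12, a factor in export of the subunits, stood at 9.99 ± 0.631 and 4.73 ± 0.400 CPM (-0.97 ± 0.18 SE, edgeR adjusted p = 0.0973). SBDS and NOP10 had the smallest p of those above 0, with 0.35 and 0.27. Within classes, the ribosome biogenesis list had 19 of 82 genes above 0 with a median of -0.20 in basal-like nuclei. In T or NK-like nuclei it had 31 of 80 with -0.04.

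In all nuclei, mitochondrial ribosomal proteins had 62 of 74 genes above 0 with a median of 0.30. Nuclear genes of oxidative phosphorylation had 64 of 70 with 0.38. The list of translation factors of terminal oligopyrimidine messages had 21 of 40 with 0.02. In that list HNRNPA1, not itself a translation factor, had -0.40 and EIF6, which keeps the subunits apart, had 0.59. FAU and RACK1, ribosomal proteins whose symbols do not begin with RPL or RPS, had 0.05 and 0.17.

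The mTOR, S6 kinase and stress list had 19 of 46 above 0 with a median of -0.15. DEPTOR, an inhibitor bound to mTOR, stood at 18.4 ± 3.25 and 30.1 ± 2.50 CPM (0.82 ± 0.19 SE, edgeR adjusted p = 0.117). RPTOR, a scaffold protein bound to mTOR, had -0.69 ± 0.18 SE (edgeR adjusted p = 0.135). Members and these genes came from the same 6 libraries. The shift in class shares between the groups given above touches every sum over all nuclei.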

How the data were processed

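The members and gene lists were chosen with earlier results of these data known. The deposited files hold UMI counts per gene and barcode, whole numbers with no scaling, that the authors made with Cell Ranger. Its version is 8.0.0 per the file headers but 2.1.1 per the submitters' processing notes, and no source settles which. The genome build, annotation and the treatment of reads shared by near-identical copies were not given in the sources used here. Paralogs are less certain for that reason. Gene numbers were matched to symbols in a RefSeq table of ARS-UI_Ramb_v3.0, used for names only, for 26741 of 26741. RPL17, RPL26 and RPL41 were not matched by symbol and are not analysed here.

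Barcodes under 300 genes, over 10% mitochondrial UMIs or in the top 0.5% by UMIs were left out, and 3661 doublets were removed (Scrublet, or the top scores at 0.8% per 1000 nuclei where it marked under 0.5%). Leiden clustering (scanpy 1.11.5, igraph 0.11.9, 2000 variable genes, 30 components, resolution 0.8) gave 23 clusters. Names came from 17 marker lists and were decided after clustering.

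Sums per animal were made of UMIs in all nuclei, in all keratinocyte-like nuclei and in each class with at least 20 nuclei in every animal; cluster 13 fell short and was described by levels alone. The labels say that separate sheep were picked at random, so the animal is the replicate. All genes were fitted with edgeR 4.0.16 in R 4.3.3 (filterByExpr, TMM, robust quasi-likelihood F test), adjusted by Benjamini-Hochberg and called at 0.05. The filter passed 79 members in most fits, 78 in cluster 11, 76 in neutrophil-like and 73 in glia-like nuclei. Alternatives were DESeq2 1.42.0, limma 3.58.1 (voom), other scaling, no filter, each animal left out, a replicate block, a stricter nuclei filter, no doublet removal and, for shares, other denominators and weights. Values at matched depth and without cluster 5 were added after seeing the data. The edgeR fit was tested on simulated counts for all nuclei at dispersions (spread beyond counting error) of 0.02 and 0.1. Changes of 1.5-fold were called in 47.8% and 0% of changed genes, in that order. For 2-fold changes it was 91.0% and 7.46%, and for 4-fold changes 100% and 95.45%. Small changes could thus be missed.

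Members named are the 6 highest and 4 lowest in level, those with the smallest p in all nuclei (6), in keratinocyte-like nuclei (4) and in each class, those with the largest (4) and smallest (2) spread between classes, fixed members by role, and the 2 smallest p each way in 4 context lists; some of these are not reported here. Values are means ± SD over animals unless SE is named; CPM are computed here.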

Additional observations from a re-analysis of the deposited data

Results flagged for a closer look

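Barcodes left out for having under 300 genes carried a higher share of ribosomal protein UMIs than the retained nuclei of the same library. The share there was 17.9%, 13.1% and 17.2% across MGNS 1 to 3 and 12.5%, 18.1% and 21.1% across MGHS 1 to 3, which was 1.74 to 1.99 times the share in retained nuclei. The order of the animals was the same as in retained nuclei, except that MGNS 1 and MGHS 2 changed places. These barcodes enter no comparison in the text above, and their part in the low-depth cluster 5 was not tested.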

How the results depend on the processing

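Of 821 values under alternatives, 804 stayed on their side of the threshold or moved by less than the spread. No value past the threshold changed sign, but uncalled medians of the members did in granular-like, T or NK-like, B or plasma-like, macrophage or dendritic-like, neutrophil-like, fibroblast-like, smooth muscle or pericyte-like and glia-like nuclei and in cluster 2. The count of members called was 0 in all nuclei and in keratinocyte-like nuclei under every alternative run, and 0 in every fit without 1 animal, the test between classes included. Over the 16 classes the count was 1 with DESeq2, 3 with every gene of at least 1 UMI kept and 1 with the replicate block. In cluster 11 it was 1 with DESeq2, 2 without the filter (RPL36 and RPL35A) and 1 with the block. In cycling keratinocyte-like nuclei it was 1 without the filter (RPL26L1). The cause of these calls was not tested. The share of all genes called in those class fits is not given here, so the counts stand without their background. Leaving out single animals moved the difference in member share, MGHS minus MGNS, from -0.516 to 2.20 percentage points in all nuclei and from -0.844 to 2.29 in keratinocyte-like nuclei. It fell below 0 without MGNS 2 (-0.181) or MGHS 3 (-0.516) in all nuclei, and likewise in keratinocyte-like nuclei (-0.844 and -0.634). In smooth muscle or pericyte-like nuclei limma-voom gave a median of -0.25. Same-numbered animals did not deviate together (correlations of -0.02, -0.06 and -2.2e-05 across genes), so the numbers were not taken to pair them, although RPS6 was highest in both animals numbered 3. The block called RPL36 in cluster 11 (adjusted p = 0.0393) and no other member. The glia-like comparison is limited by 311 nuclei, 23 in the smallest library, and by depth, and tested 775 genes.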
